A study of Mus musculus with 12 samples.

Results

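Genes of renal sodium reabsorption, 9 in all, were examined in embryonic mouse kidney: the epithelial sodium channel subunits Scnn1a, Scnn1b and Scnn1g, the sodium pump subunits Atp1b1 and Fxyd2, the sodium/hydrogen exchanger Slc9a3, and the mineralocorticoid control genes Nr3c2, Hsd11b2 and Sgk1. They were chosen by name, as genes of this function and with earlier results of these data known. They were found through the accession of each array probe. The array carried 12 probes for all 9 genes, and 7 of the genes, each with 1 probe, had a signal that could be compared, among 12647 genes that could be compared in all. Kidneys null for Bdkrb2, the gene of the bradykinin B2 receptor, were compared with wild-type (WT) kidneys at embryonic day 14.5. Both genotypes were on a C57BL/6 background, came from matings of heterozygous parents and shared the same exposure, since the mothers were fed food with 5% sodium; kidneys of mothers on other food were not analysed here. Each array carried total RNA of a null and a WT kidney sample in the Cy3 and Cy5 colours. There were 3 replicates in the null/WT dye orientation and 3 in the WT/null orientation, each hybridised to 2 arrays, which gave 12 arrays and 6 replicate values per gene. The labels do not say whether a replicate came from 1 embryo or from a pool, so the p-values measure the spread between these samples, part of which may be technical. The labels also leave unsaid whether the 2 orientations with the same replicate number hold the same RNA; if they do, they are dye swaps of 1 sample and the 6 values come from 3 samples.

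In the mature nephron sodium enters the cell through channels and exchangers of the apical membrane and leaves through the sodium pump of the basolateral membrane. The epithelial sodium channel of the late distal tubule and collecting duct is built from alpha, beta and gamma subunits and sets the final excretion of sodium. Aldosterone acts there through the mineralocorticoid receptor, and the kinase SGK1, induced by that receptor and by the glucocorticoid receptor, keeps the channel at the cell surface. Bradykinin acting through the B2 receptor promotes sodium excretion. At the embryonic stage studied here the kidney is still forming nephrons, and few tubules are mature.

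Between 40.5% and 58.3% of probes were well above background in the Cy3 channel, and between 50.4% and 59.4% in the Cy5 channel. One array stood apart, the first of the pair for WT/null replicate 3, with the 40.5% and with a correlation of 0.711 with its duplicate, against 0.824 to 0.923 for the other duplicate pairs. Each replicate number stood for 1 slide that held 4 arrays in both dye orientations. The deviations of the 2 orientations of a number were correlated over all tested probes (r = 0.587, 0.517 and 0.413 for numbers 1, 2 and 3), and values are therefore also given by replicate number. Xist had a signal above background on all 12 arrays in null kidneys and on 4 in WT kidneys. Eif2s3y, Kdm5d and Ddx3y, which are Y-linked, had none in null kidneys and had one in WT kidneys on 8 arrays, those of numbers 2 and 3. The labels do not give the sex of the embryos, so on those slides a difference between genotypes cannot be told apart from a difference in sex. Nephron progenitor markers were clearly present, with a mean log2 signal between 10.79 and 10.99 in null and between 10.85 and 11.12 in WT kidneys over the 3 numbers, while the distal convoluted tubule transporter Slc12a3 was above background on 0 of the 12 arrays in either genotype.

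Of the 7 sodium genes that could be compared, 0 passed an adjusted p of 0.05 between null and WT kidneys (limma, Benjamini-Hochberg over 22979 probes), and 0 had an unadjusted p under 0.05. Over all tested probes 0.0392% passed the adjusted threshold, 9 probes in number (0.0218% higher and 0.0174% lower in null kidneys), and 7.01% had an unadjusted p under 0.05. With the replicate number as a block, the counts of sodium genes were again 0 and 0 (limma). Over all tested probes, 4 probes or 0.0174% passed the adjusted threshold and 3.3% had an unadjusted p under 0.05 in that fit. Its residual error comes from the spread between the 3 numbers, so it does not take the 6 values as 6 samples. As in the main fit, limma then draws that error toward a variance shared by all tested probes. The fitted log2 difference, null over WT, was above 0 for 5 of the 7 genes and below 0 for 2, against 44.1% of all tested probes above 0. Its median over the 7 genes was 0.09, against -0.01 over all tested probes. None of the 7 had the same sign in 6 of 6 replicates, as 2.92% of all tested probes did. Only Hsd11b2 had the same sign for all 3 numbers, as 25.1% of tested probes did, and 5 of the 7 genes had their highest (most positive) value at number 3, as did 34.1% of tested probes. These signs depend on the centring: when each array's ratios were only centred on their median, tested probes as a whole had a median of 0.33, -0.07 and 0.18 for numbers 1, 2 and 3, Hsd11b2 had 0.14, -0.09 and -0.14, and Atp1b1 and Scnn1b were above 0 at all 3 numbers. In RNA from whole kidneys fewer cells of a type and less RNA per cell cannot be told apart, which holds for each value below.

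The alpha subunit, Scnn1a (probe A_51_P213691, chromosome 6), is the pore subunit without which the channel carries little current. Its normalised log2 signal (loess within arrays, then scaled between arrays, per channel) was 8.88, 9.23 and 9.21 in null kidneys of null/WT replicates 1, 2 and 3 and 8.86, 9.21 and 9.30 in those of WT/null replicates 1, 2 and 3. The WT kidneys of the same replicates had 8.90, 9.42 and 8.88 in the null/WT orientation and 8.76, 9.24 and 8.64 in the WT/null orientation. The genotypes overlapped, and only at number 3 did both null values lie above both WT values by more than either pair's own gap. The difference within arrays, null over WT, was 0.04, -0.11 and 0.49 on the log2 scale for numbers 1, 2 and 3, the last a 1.41-fold higher signal in null kidneys. Across the 6 replicates it was 0.14 ± 0.10 (SE, 95% interval -0.08 to 0.37, limma adjusted p = 0.729), and without number 3 it was -0.03. The number 3 value leaned in part on the array that stood apart. That array gave 0.81 and its duplicate 0.50, and without it number 3 came to 0.41. The second Scnn1a probe was not above background on any of the 12 arrays in either genotype and gave no level.

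The beta and gamma subunits, Scnn1b and Scnn1g, which raise the number of channels at the cell surface, lie next to each other among the protein-coding genes of chromosome 7. Scnn1b (probe A_51_P412348) had a mean log2 signal of 7.94 ± 0.12 in null and 7.94 ± 0.10 in WT kidneys (SD, n = 6 each). Scnn1g (probe A_51_P245558) had 9.71 ± 0.07 in null and 9.68 ± 0.08 in WT kidneys (SD, n = 6 each). These were the steadiest of the sodium genes, and null and WT values overlapped at both. The fitted difference of Scnn1b was -0.01 ± 0.04 (SE, 95% interval -0.10 to 0.09, limma adjusted p = 0.974), with -0.05, 0.06 and -0.03 for numbers 1, 2 and 3. That of Scnn1g was 0.03 ± 0.05 (SE, 95% interval -0.08 to 0.15, limma adjusted p = 0.824), with -0.07, 0.06 and 0.12. Both intervals include changes of either sign, and the sign of Scnn1b turned under median centring of the arrays.

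**Figure D1:**
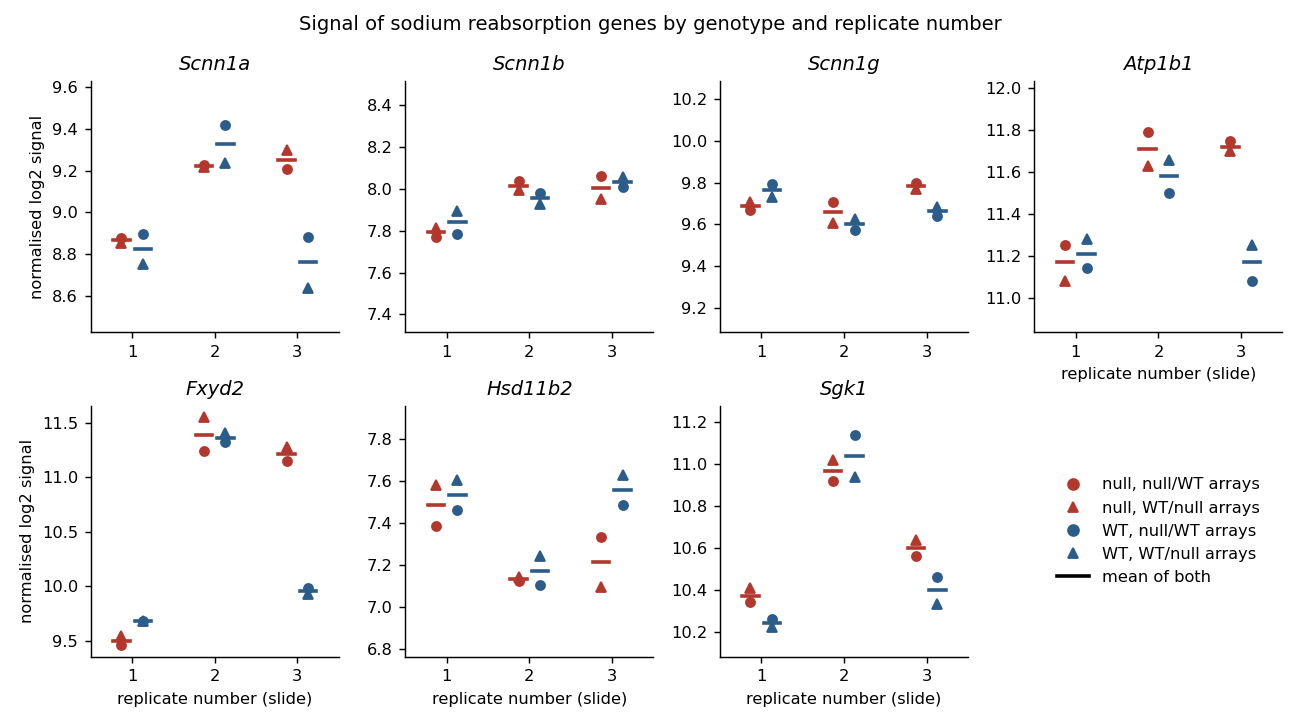
Normalised log2 signal of the 7 sodium genes that could be compared, by replicate number, with null kidneys left of WT kidneys. Each point is 1 replicate (mean of 2 arrays), circles are null/WT and triangles WT/null arrays, bars are the mean of both, and each gene has its own axis range. Fxyd2 spans the widest range, with 11.15 and 11.28 in null against 9.98 and 9.93 in WT kidneys at number 3.

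The beta subunit of the sodium pump, Atp1b1 (probe A_51_P151484, chromosome 1), helps the pump to fold and to reach the membrane. In null kidneys its log2 signal was 11.25, 11.79 and 11.75 in null/WT replicates 1, 2 and 3 and 11.08, 11.63 and 11.70 in WT/null replicates 1, 2 and 3. In WT kidneys it was 11.14, 11.50 and 11.08 in the null/WT replicates and 11.28, 11.66 and 11.25 in the WT/null replicates. Null kidneys of numbers 2 and 3 and WT kidneys of number 2 were the high samples, and the genotypes overlapped. The null over WT difference was -0.05, 0.13 and 0.56 for numbers 1, 2 and 3, the last a 1.47-fold higher signal in null kidneys. Across replicates it was 0.21 ± 0.10 (SE, 95% interval -0.01 to 0.43, unadjusted p = 0.0561 and adjusted p = 0.710 by limma), the smallest unadjusted p of the 7 genes. Leaving out number 3 brought it to 0.04. With median centring the value of number 1 turned to 0.41, and the values for numbers 1, 2 and 3 relative to the median of all probes were 0.08, 0.08 and 0.61.

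Fxyd2 (probe A_52_P611783, chromosome 9), the gamma subunit that tunes the pump's affinity for its ions, varied most. In null kidneys its log2 signal was 9.46, 11.24 and 11.15 in null/WT replicates 1, 2 and 3 and 9.54, 11.55 and 11.28 in WT/null replicates 1, 2 and 3. In WT kidneys it was 9.68, 11.32 and 9.98 in the null/WT replicates and 9.68, 11.40 and 9.93 in the WT/null replicates. Both genotypes were low at number 1 and high at number 2, and at number 3 null kidneys were high while WT kidneys were low. The null over WT difference was -0.18, 0.03 and 1.26 for numbers 1, 2 and 3, which are 0.881-fold, 1.02-fold and 2.39-fold. The fit across replicates gave 0.37 ± 0.23 (SE, 95% interval -0.15 to 0.89, limma adjusted p = 0.724), so the mean difference did not exceed the spread between replicates, and without number 3 it was -0.07. With median centring the values were 0.22, -0.09 and 1.49, so numbers 1 and 2 turned sign, and relative to the median of all probes they were -0.11, -0.02 and 1.30.

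**Figure D2:**
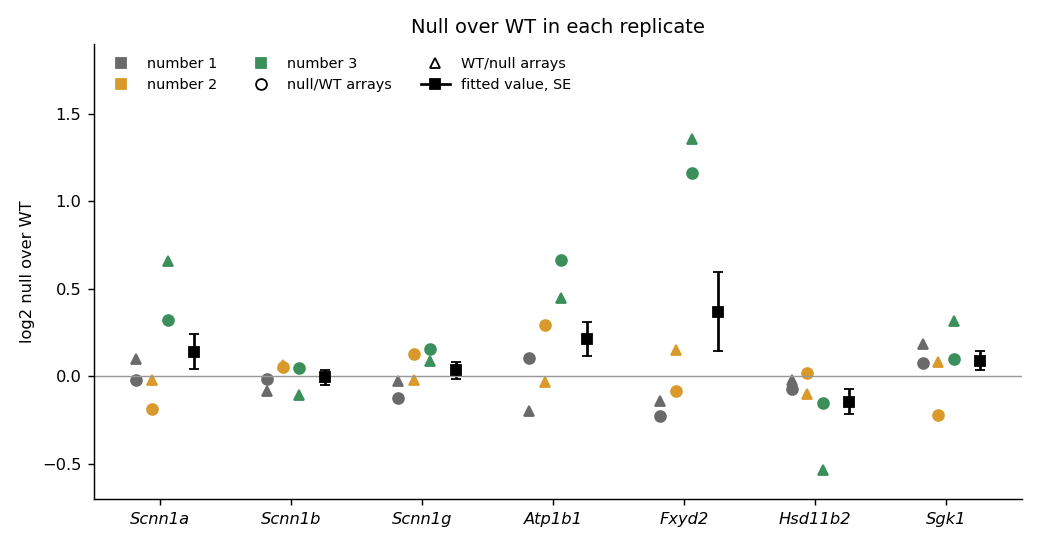
Log2 signal ratio, null over WT within arrays, of the same 7 genes for each of the 6 replicates (colour for the number, shape for the dye orientation), with the fitted difference and its SE as black squares and bars. At replicate number 3 Fxyd2, Atp1b1 and Scnn1a stand above their other replicates and Hsd11b2 lies below.

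The sodium/hydrogen exchanger Slc9a3, which carries sodium into proximal tubule cells, could not be compared. Its single probe had a signal above background on 0 of the 12 arrays in either genotype, and no level or difference is given. The same held for the mineralocorticoid receptor gene, Nr3c2, with 3 probes. One of them exceeded background on 2 of the 12 arrays in null kidneys and on 0 in WT kidneys, and the other 2 probes on 0 in either genotype. The transcripts were thus not detectable on these arrays, which does not show that they were absent.

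Hsd11b2 (probe A_51_P410205, chromosome 8) encodes the dehydrogenase that inactivates glucocorticoids in aldosterone target cells and so keeps them off the mineralocorticoid receptor. Its log2 signal in null kidneys was 7.39, 7.12 and 7.33 in null/WT replicates 1, 2 and 3 and 7.58, 7.14 and 7.09 in WT/null replicates 1, 2 and 3. In WT kidneys it was 7.46, 7.10 and 7.49 in the null/WT replicates and 7.60, 7.24 and 7.63 in the WT/null replicates. Here both genotypes were low at number 2, the reverse of Fxyd2, and at number 3 null kidneys were the lower ones. The null over WT difference was -0.05, -0.04 and -0.34 for numbers 1, 2 and 3, below 0 in 5 of 6 replicates. The fit gave -0.14 ± 0.07 (SE, 95% interval -0.30 to 0.01, limma adjusted p = 0.710). The size of this difference depended on the processing. It was -0.23 with the scanner's ratios and with the authors' table, and -0.19 without background correction. With median centring it was -0.03, or -0.17 relative to the median of all probes. The number 3 value leaned on the array that stood apart: that array gave -0.77 and its duplicate -0.30, and without it number 3 came to -0.23. Without number 3 the fitted difference was -0.04.

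Sgk1, the aldosterone-induced kinase, is shown with its promoter because the corticosteroid receptors bind, as dimers, to inverted repeats of the hexamer AGAACA spaced by any 3 bases (AGAACA, 3 bases, TGTTCT). RefSeq promoter windows (GRCm38.p6, 250 bases before to 50 after a start) matched 6 of the 9 genes by symbol, with 11 windows, 6 of them of Sgk1; Scnn1a, Fxyd2 and Hsd11b2 had none. The hexamer, searched as AGAACA on both strands and also counted where it forms part of the repeat, was found in 3 of the 11 windows, all of Sgk1, and in 19.0% of all 32851 windows. The full inverted repeat was found in 0.00913% of all windows, 3 in number, those of Sgk1, Acnat2 and Gm35041. The Sgk1 window with the repeat is chr10:21993640-21993939 on the plus strand, and the repeat fills bases 62 to 76 of it, beginning at position -189 from the start of that window's transcript and 965 bases before the last Sgk1 start. Capitals mark the hexamer on either strand; the window of the last start (chr10:21994416-21994715, plus strand), that of Atp1b1 (chr1:164458306-164458605, minus strand) and that of Scnn1g (chr7:121734229-121734528, plus strand) hold none and are shown beside it for comparison. A match is a description of the letters and no measurement of binding.
Sgk1 with repeat: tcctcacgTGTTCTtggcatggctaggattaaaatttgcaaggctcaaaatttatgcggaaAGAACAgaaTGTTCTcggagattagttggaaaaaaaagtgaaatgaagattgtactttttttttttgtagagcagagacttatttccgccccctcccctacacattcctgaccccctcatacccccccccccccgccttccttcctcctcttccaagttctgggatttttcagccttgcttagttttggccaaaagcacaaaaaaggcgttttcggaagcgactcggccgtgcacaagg
Sgk1 last start: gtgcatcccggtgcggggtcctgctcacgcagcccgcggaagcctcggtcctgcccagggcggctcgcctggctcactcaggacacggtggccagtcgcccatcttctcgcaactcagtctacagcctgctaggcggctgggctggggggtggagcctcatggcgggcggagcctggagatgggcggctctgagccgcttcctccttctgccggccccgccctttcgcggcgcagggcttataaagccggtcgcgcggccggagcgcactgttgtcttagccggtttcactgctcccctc
Atp1b1: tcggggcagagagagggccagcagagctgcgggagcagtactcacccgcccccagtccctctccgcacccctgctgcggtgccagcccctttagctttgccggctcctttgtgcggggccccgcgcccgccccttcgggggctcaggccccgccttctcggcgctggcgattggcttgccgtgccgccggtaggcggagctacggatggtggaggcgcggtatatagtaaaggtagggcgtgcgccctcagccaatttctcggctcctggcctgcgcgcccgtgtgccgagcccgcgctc
Scnn1g: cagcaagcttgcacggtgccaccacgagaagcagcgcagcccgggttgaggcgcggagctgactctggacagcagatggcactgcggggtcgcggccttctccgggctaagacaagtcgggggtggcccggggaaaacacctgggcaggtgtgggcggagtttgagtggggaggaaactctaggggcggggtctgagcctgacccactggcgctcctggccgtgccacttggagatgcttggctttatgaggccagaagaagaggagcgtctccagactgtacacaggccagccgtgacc

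The log2 signal of Sgk1 (probe A_51_P118237, chromosome 10) in null kidneys was 10.34, 10.92 and 10.56 in null/WT replicates 1, 2 and 3 and 10.41, 11.02 and 10.64 in WT/null replicates 1, 2 and 3. In WT kidneys it was 10.26, 11.14 and 10.46 in the null/WT replicates and 10.22, 10.94 and 10.33 in the WT/null replicates. Number 2 was the highest in both genotypes, and the genotypes overlapped. The null over WT difference was 0.13, -0.07 and 0.21 for numbers 1, 2 and 3, above 0 in 5 of 6 replicates. The fit gave 0.09 ± 0.06 (SE, 95% interval -0.04 to 0.22, limma adjusted p = 0.724), and without number 3 it was 0.03.

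Levels also differed between replicate numbers, and not in the same way for each gene. Each number was 1 slide, so a level difference between numbers cannot be told apart from a difference between slides. The same holds for the marker levels below. In null kidneys Fxyd2 was 1.89 higher at number 2 and 1.72 higher at number 3 than at number 1 on the log2 scale, and in WT kidneys 1.68 and 0.27 higher. For Atp1b1 the same differences were 0.55 and 0.56 in null kidneys and 0.37 and -0.05 in WT kidneys. For Scnn1a they were 0.35 and 0.39 in null kidneys and 0.50 and -0.06 in WT kidneys. Thus all 3 genes had their highest WT level at number 2, and null kidneys were about as high at number 3 as at number 2. Hsd11b2 ran the other way, at -0.35 and -0.27 in null kidneys and at -0.36 and 0.02 in WT kidneys. Sgk1 peaked at number 2 in both, with 0.60 and 0.23 in null kidneys and 0.80 and 0.15 in WT kidneys. Levels taken from the scanner's own processed signals, an alternative chosen after the values were seen, gave Fxyd2 1.96 and 1.80 in null and 1.65 and 0.18 in WT kidneys. The same alternative gave Hsd11b2 -0.64 and -0.31 in null and -0.67 and 0.02 in WT kidneys, so its fall at number 2 was over 1.5 times as large. Scnn1a had 0.54 and 0.53 in null and 0.67 and 0.05 in WT kidneys, and Atp1b1 had 0.56 and 0.62 in null and 0.40 and 0.01 in WT kidneys, the last WT value of both genes with its sign turned.

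Markers of tubule segments are given beside these values, and 0 of them passed the adjusted threshold (limma). Unadjusted p (limma) was under 0.05 for 2 of 7 proximal, 4 of 7 loop and distal and 3 of 12 trunk and duct markers. These were higher in null kidneys, while 2 of 9 nephron progenitor markers below that p were lower. Over all tested probes the share was 7.01%. The mean log2 signal of 7 proximal tubule markers was 7.70, 9.07 and 8.91 in null kidneys of numbers 1, 2 and 3 and 7.70, 8.89 and 7.99 in WT kidneys. That of 7 loop of Henle and distal tubule markers was 9.21, 10.07 and 10.07 in null kidneys and 9.16, 9.97 and 9.28 in WT kidneys. Both lists thus followed the order seen for Fxyd2, low at number 1, high at number 2, and split by genotype at number 3. At number 3 the null over WT difference was 2.24 for Fbp1, a gluconeogenic enzyme of the proximal tubule, 1.29 for the phosphate transporter Slc34a1 and 1.67 for Slc12a1, the sodium-potassium-chloride cotransporter of the thick ascending limb. The 12 markers of ureteric trunk and collecting duct, where the sodium channel works in the adult, had means of 11.18, 11.37 and 11.31 in null and 11.17, 11.28 and 11.16 in WT kidneys, and their median difference was 0.02, 0.08 and 0.06. Within that list Aqp3 and Aqp2, water channels of the collecting duct, had 1.03 and 0.79 at number 3, while Wnt7b, a ligand of the ureteric trunk, had -0.26. The rest of the list was named after the values were seen, each gene by its brightest probe. Wnt9b, Calb1, Krt8 and Gata3 lay between -0.22 and -0.02 at number 3. Krt19, Tfcp2l1, Elf5, Krt18 and Hoxb7 lay between 0.02 and 0.25 there. The 9 nephron progenitor markers had a median difference of -0.01, -0.06 and -0.19. The part of segment makeup in the sodium genes' values was not tested.

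**Figure D3:**
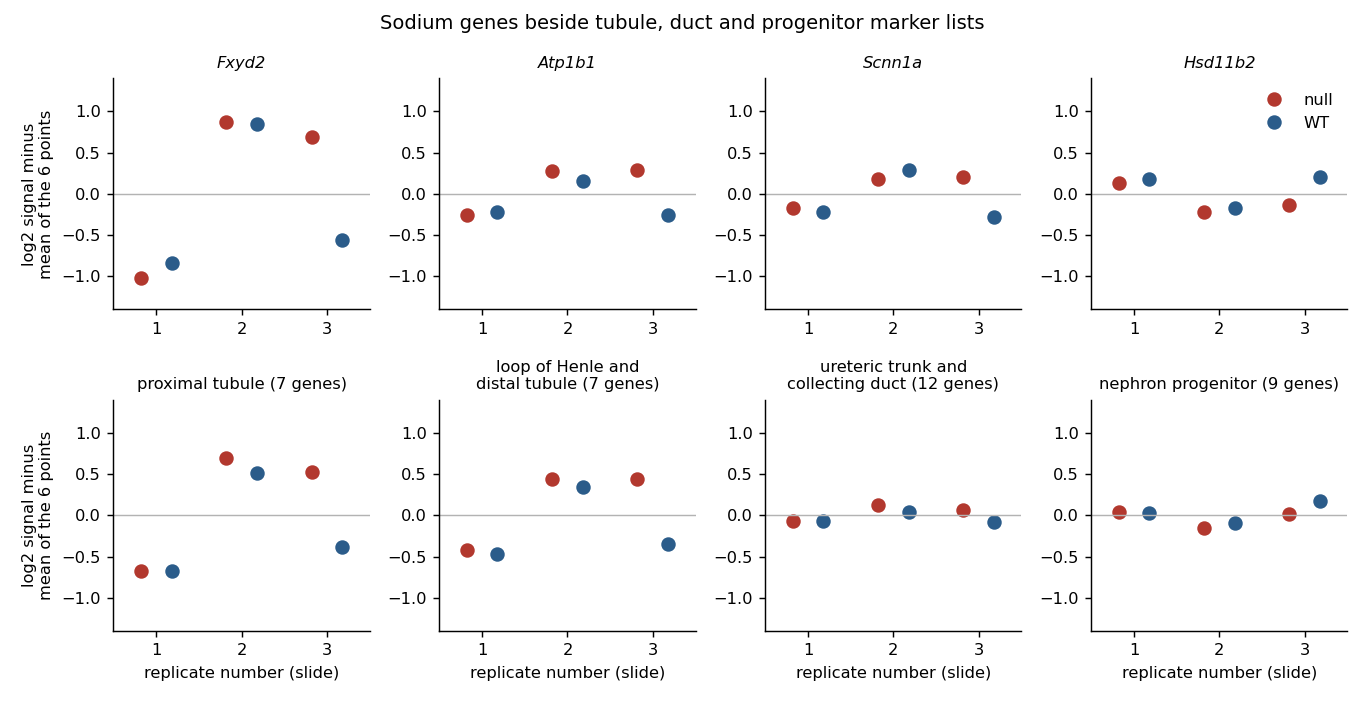
Normalised log2 signal, minus the mean of the 6 points of its panel, for Fxyd2, Atp1b1, Scnn1a and Hsd11b2 (top) and for the mean of 4 marker lists (bottom), by replicate number, with null kidneys left of WT kidneys. The proximal and the loop and distal lists are low at number 1, high at number 2 and split by genotype at number 3, as are Fxyd2, Atp1b1 and Scnn1a.

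Of the markers of neighbouring tissues, 0 passed the adjusted threshold (limma). An unadjusted p under 0.05 (limma) was found for 5 of 8 muscle and cartilage and 1 of 4 liver markers. These were all higher in null kidneys. It was also found for 1 of 7 erythroid markers, lower in null kidneys, and for 0 of 4 adrenal markers. The share over all tested probes was 7.01%. The 8 skeletal muscle and cartilage markers had a median null over WT difference of 0.14, 0.38 and 1.29 for numbers 1, 2 and 3, with summed linear signal between 2859 and 5949 in null and between 2415 and 3783 in WT kidneys. Myh3, an embryonic myosin, had 2.92 and Acta1, skeletal actin, had 2.29 at number 3, while the cartilage genes Col2a1 and Acan, named after their values were seen, had -0.55 and -0.04. The 4 liver markers had medians of 0.00, 0.10 and 0.27 and a summed signal between 2257 and 6998 in null and between 2230 and 6699 in WT kidneys. The 7 erythroid markers had medians of -0.16, -0.03 and 0.15. Of the adrenal markers, the steroid enzymes Cyp11a1, Cyp21a1 and Hsd3b1 and the catecholamine enzymes Th and Dbh exceeded background on at most 1 of the 12 arrays in either genotype, but Mc2r, the corticotropin receptor gene, exceeded it on all 12 arrays in both, and the steroidogenic genes Cyp17a1 and Star on 9 in each. At number 3 these had 0.06, 0.27 and -0.14, and the adrenal list's medians were 0.02, 0.01 and -0.01. The part of the muscle and liver signal in the sodium genes' values was not tested. Number 3 also had the widest spread over all tested probes, with an SD of 0.207 against 0.125 and 0.123 at numbers 1 and 2. There 1.07% of probes lay above 0.5, against 0.344% and 0.235%. Below -0.3 lay 6.47% of probes at number 3, against 0.609% and 0.47% at numbers 1 and 2.

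Of 66 other genes of the pathway, in 5 lists, 52 could be compared, 0 passed the adjusted threshold, and 6 had an unadjusted p under 0.05, all higher in null kidneys, which is 11.5% against 7.01% of all tested probes. Of the pump and FXYD list, 7 of 9 genes lay above 0, with a median of 0.05. Fxyd1, the pump regulator phospholemman, had 0.19 ± 0.07 (SE, limma adjusted p = 0.691), and Fxyd5, another FXYD protein, had 0.10 ± 0.05 (SE, adjusted p = 0.716).

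Of the 13 tested regulators and proteases of the sodium channel, 9 lay above 0, with a median of 0.03. Cav1, the caveolin of membrane caveolae, had 0.26 ± 0.06 (SE, unadjusted p = 0.00327 and adjusted p = 0.464 by limma), with 0.22, 0.11 and 0.44 for numbers 1, 2 and 3, above 0 in 6 of 6 replicates, as were 1.5% of tested probes, and its other probe had 0.28. Sgk3, a kinase of the SGK family, had 0.18 ± 0.07 (SE, limma adjusted p = 0.691). Nedd4, a ubiquitin ligase, had 0.07 ± 0.04 (SE, adjusted p = 0.711), and Nedd4l, the ligase that removes the channel from the surface, was above background on 0 of the 12 arrays in either genotype. Cav1 was the one of these with a difference of the same sign at each replicate, and it did not pass the adjusted threshold. With the replicate block its adjusted p was 0.904 (limma).

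Of the 10 tested genes of corticosteroid action, 5 lay above 0 and 5 below, with a median of -0.01. The glucocorticoid receptor gene Nr3c1, whose product binds the same repeat as the mineralocorticoid receptor, had 0.17 ± 0.06 (SE, limma adjusted p = 0.675) by its brightest probe and 0.15, 0.04 and -0.06 by the others. The coactivator Ncoa1 had 0.12 ± 0.05 (SE, adjusted p = 0.700) and the receptor chaperone partner Fkbp4 had -0.20 ± 0.10 (SE, adjusted p = 0.710). Probes of Nr3c1 thus disagreed in sign. Of the 9 tested exchangers and scaffolds, 6 lay above 0, with a median of 0.04. The scaffold Pdzk1 had 0.22 ± 0.15 (SE, limma adjusted p = 0.729), from -0.18, 0.06 and 0.77 for numbers 1, 2 and 3, while the endosomal exchanger Slc9a9 had 0.08 ± 0.04 and the exchanger cofactor Chp1 had 0.08 ± 0.05 (SE, adjusted p = 0.711 and 0.724). The other tested probes of Chp1 had -0.09 and -0.00, so its probes disagreed in sign. Of the 11 tested chloride-coupled transporters and WNK pathway genes, 6 lay above 0, with a median of 0.03. Slc12a1 had 0.62 ± 0.26 (SE, limma adjusted p = 0.707) and the potassium channel Kcnj1, which recycles potassium for it, had 0.59 ± 0.28 (SE, adjusted p = 0.710), with -0.10, 0.16 and 1.70 for numbers 1, 2 and 3. The kinase Wnk4 had -0.09 ± 0.05 (SE, adjusted p = 0.710). The loop genes Slc12a1 and Kcnj1 thus had the same split at number 3 as Fxyd2.

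**Figure D4:**
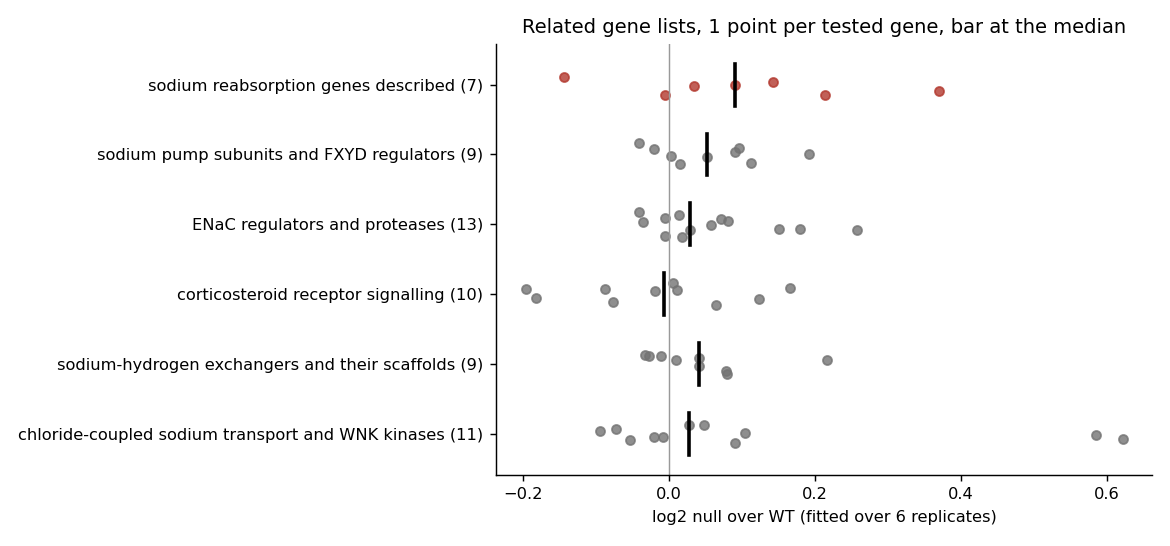
Fitted log2 difference, null over WT, of each tested gene in the 5 related lists and the 7 sodium genes, with a bar at the median of each list. Of the 52 related genes, Slc12a1 at 0.62 and Kcnj1 at 0.59 lie highest.

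The genes whose null over WT pattern over the 6 replicates was most like that of Fxyd2, with each dye orientation centred, included Cyp2d26 (r = 0.9999) and Mep1a (r = 0.9997). For Atp1b1 they were Cryab, Ass1 and S100a1 (r = 0.9998, 0.9988 and 0.9987), and for Scnn1a Prdx1, Lamp1 and Usp37 (r = 0.9989, 0.9987 and 0.9985). For Hsd11b2 they were Fiz1, Trp53i11 and Sall1 (r = 0.9992, 0.9988 and 0.9976), and for Sgk1 Zfp426, Gucy1b1 and Ubtd2 (r = 0.9992, 0.9985 and 0.9982). For Scnn1b they were Tle2, Paox and Fgf11 (r = 0.9951, 0.9904 and 0.9891), and for Scnn1g Uap1l1, Aurkaip1 and Slc39a8 (r = 0.9929, 0.9904 and 0.9899). These coefficients are the highest among all other genes over only 6 values that share arrays and slides, and are given as a description. Among the sodium genes, the coefficient was 0.984 for Atp1b1 with Fxyd2, 0.917 for Scnn1a with Fxyd2, 0.862 for Scnn1a with Atp1b1, and -0.907 for Scnn1a with Hsd11b2, over the same 6 replicates, and the median over the 21 pairs was 0.16. The channel subunits Scnn1b and Scnn1g had 0.16 with each other.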

How the data were processed

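Two-colour Agilent arrays compared Bdkrb2 null with WT kidneys, with 2 arrays per replicate. Spot intensity came from the deposited scanner files (Feature Extraction version 10.5.1.1 per the file headers, version 6.1 per the submitters' processing notes), as median signal and median background per channel. The authors' deposited value table holds log10 ratios that correlated at 0.998 to 0.999 with the scanner's, with column medians of 0.000114, -0.00174, -0.00332, -0.00315, 0.00645 and 0.00146 in the null/WT arrays and -0.00257, -0.0044, -0.000946, -0.000769, -0.0218 and -0.01 in the WT/null arrays. How it was centred is unknown. Background was corrected with normexp (offset 50) and ratios with loess in limma 3.58.1 (R 4.3.3), leaving out control and outlier spots. The 43379 spots were averaged to 41174 probes and duplicate arrays to 1 replicate. Tests covered the 22979 probes that exceeded background well on at least 6 arrays in null or in WT kidneys. The fit had a genotype and a dye term, with Benjamini-Hochberg adjustment, and a gene stood for its brightest tested probe. Levels are log2 signals after scaling between arrays (Aquantile). The 2 orientations of a number share a slide, and each pair's correlation was above 0.1, so they count as paired. The values printed, with their SEs, intervals and the list counts of unadjusted p, come from the fit without that pairing unless the block is named. With the block the SE of each tested sodium gene was larger, as 0.26 against 0.23 for Fxyd2. The share of all tested probes with an unadjusted p under 0.05 was 3.3% against 7.01% (limma). List counts with the block are not given. The block gives each number its own dye term, so its residual error comes from the spread between the 3 numbers. In either fit limma draws the error toward a variance shared by all tested probes. On simulated data changed by 0.5 and 1 on the log2 scale, the fit recovered 76 and 100 of 100 probes each with 6 false calls. With the block it recovered 62 and 97 with 0 false calls. The simulated errors were independent between the 6 replicates, whereas the 2 orientations of a number were correlated in the data. These counts therefore do not show how often the fits miss or falsely call probes under that correlation.

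The genes and lists were chosen with earlier results of these data known. Named were all 9 genes, up to 3 genes of smallest p in each related list plus Nedd4l, Nr3c1, Slc12a1 and Slc12a3, up to 3 genes of each marker list that differed most between numbers, and the 3 genes most like each sodium gene; 2 genes that this rule names are not reported here. Alternatives covered background correction, centring, filters, the replicate block, the authors' table and left-out replicates. Arrays give no counts, and their number limits the precision.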

Additional observations from a re-analysis of the deposited data

Results flagged for a closer look

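One value was singled out among 21 groups of 6 replicates examined, where chance alone singles out about 1 in 20. The log2 difference of Hsd11b2, null over WT, was -0.533 in WT/null replicate 3, and the nearest of the other 5 replicates had -0.155. The gap was 0.684 of the group's range, above Dixon's critical value for 6 samples. The 2 arrays of that replicate gave -0.77 and -0.30, and the first of them was the array that stood apart in its correlation with its duplicate (0.711). Its part in the value was not tested beyond leaving it out, which gave -0.23 for replicate number 3.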

How the results depend on the processing

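The count of sodium genes past the adjusted threshold was 0 under the main setting and under all 18 alternatives, and the smallest adjusted p of any of them was 0.421 (limma). With the replicate block the adjusted p was 0.904 for Scnn1a, Atp1b1, Fxyd2, Hsd11b2 and Sgk1, 0.919 for Scnn1g and 0.991 for Scnn1b, and no call of these genes changed. The direction of Atp1b1, Sgk1 and Hsd11b2 was the same under all 18. When single replicates or whole numbers were left out, Fxyd2 ranged from -0.0746 to 0.646, Scnn1a from -0.0323 to 0.266, Scnn1g from -0.00898 to 0.0883 and Scnn1b from -0.0383 to 0.0164, and the lowest values of the first 3 were those without number 3. The median over the 7 genes ranged from -0.00898 to 0.171 in those settings. Median centring in place of loess shifted the median of all tested probes to 0.138 and that of the 7 genes to 0.272, and turned Scnn1b to 0.124, which is -0.01 relative to that shift. By number it turned the sign at number 1 for Atp1b1, Fxyd2, Hsd11b2, Scnn1b (0.20) and Scnn1g (0.33), at number 2 for Fxyd2 and Scnn1g (-0.04) and at number 3 for Scnn1b (0.17), while the other sources of ratios turned none; with the array that stood apart left out Scnn1b was 0.00393. Over all tested probes the count of calls, 9 in the main setting, was 4 with the replicate block, 15 without that array, and between 3 and 62 with replicates left out, the highest without number 3; the cause was not tested. Hybridisation to 6 replicates, dim probes for Nr3c2 and Slc9a3, and the wide spread of Fxyd2 limit what could be detected. A limma F test of whether the difference varied between the numbers, chosen after the values were seen, is not used, since its error is the gap between 2 orientations that may hold the same RNA.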

Other observations

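The stroma and endothelium lists, markers of cells that do not reabsorb sodium, gave other values at number 3 than the proximal and the loop and distal lists. The 9 tested stromal markers had a median null over WT difference of 0.20, 0.15 and 0.23 for replicate numbers 1, 2 and 3, and 8 of the 9 lay above 0. The 8 endothelial markers had 0.06, 0.04 and 0.11, all of them above 0 in the fit, and 0 genes of either list passed the adjusted threshold (limma). In the fit without the block, 7 of the 9 stromal and 2 of the 8 endothelial markers had an unadjusted p under 0.05 (limma). All of these were higher in null kidneys, and the share over all tested probes was 7.01%. Among these markers were Dcn and Lum, small proteoglycans of connective tissue. They had 0.35 ± 0.06 and 0.49 ± 0.08 (SE, limma adjusted p = 0.190 each), above 0 in 6 of 6 replicates. With the replicate block the adjusted p was 0.904 for each (limma). The summed linear signal of the stromal list lay between 101000 and 136000 in null and between 91550 and 119800 in WT kidneys, and that of the endothelial list between 18490 and 21950 in null and between 16970 and 20500 in WT kidneys. The proximal list had median differences of -0.04, 0.00 and 0.91, and the loop and distal list had 0.05, 0.06 and 0.81. The trunk and duct list, with 0.02, 0.08 and 0.06, lay near the endothelial list. The likeness or unlikeness of these lists was not tested.

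Among single markers at number 3, Spp1, a secreted phosphoprotein, had 1.39, the organic anion transporter Slc22a6 had 1.16, and Umod, uromodulin of the thick ascending limb, had 0.88. The nephron progenitor genes Uncx and Crym had -0.50 and -0.31 there, the lowest of their list, whose median was -0.19. Gdnf and Itga8 of the same list, named after their values were seen, had 0.12 and 0.09 by their brightest probes. At number 2 Uncx had 0.14. The fetal liver protein gene Afp had 1.45 there and -0.07 at number 1. The globin gene Hbb-bt had 1.16 at number 3 by its brightest probe and between 0.24 and 1.36 by the others, and its 4 probes ranged from -0.58 to 0.42 at number 1. The erythroid genes Klf1 and Hbb-bh1, named after their values were seen, had -0.32 and -0.12 at number 3.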
